A study of Mus musculus with 32 samples.

Results

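A set of 10 genes of the unfolded protein response were followed in RNA of the mouse distal colon: Hspa5, Sdf2l1, Creld2, Dnajb9, Dnajc3, Herpud1, Xbp1, Ddit3, Atf4 and Trib3. The genes were taken by gene symbol from the array platform's annotation and make up 10 of the 18193 genes measured. Together they had 24 probe sets, and each gene was read from its brightest one, the probe set with the highest mean over the 32 arrays. No measured difference between groups entered the choice of probe set. The members themselves were chosen with earlier results of these data known.

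The unfolded protein response is the way a cell adjusts when proteins misfold in the endoplasmic reticulum (ER), where secreted and membrane proteins are made. Its sensor IRE1 splices the Xbp1 transcript, and the spliced form encodes a transcription factor for ER chaperones and for the disposal of misfolded proteins. The sensor PERK slows protein synthesis and lets the transcription factor Atf4 be translated, which in turn drives Ddit3 (CHOP) and Trib3. A further sensor, ATF6, is cut in the Golgi and then raises chaperone genes such as Hspa5. The response is well known in the gut from goblet cells, which fold and secrete large amounts of mucin. Array signals are transcript levels, so Xbp1 splicing, Atf4 translation and protein levels were not analysed here.

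The series set mice lacking Myd88 (labelled Myd88-/-, knockout, KO) against wild type (WT) mice, all of strain C57 BL6NCr. Myd88 is the adaptor protein through which most Toll-like receptors and the receptors for IL-1 and IL-18 signal. Treated KO mice (n = 10) and treated WT mice (n = 10), aged 6 to 8 weeks, received the carcinogen azoxymethane (AOM) once at 10 mg/kg into the peritoneum. After 1 week they were given 2% dextran sodium sulfate (DSS), a polymer that damages the colon epithelium, to drink for 3 days before tissue was taken, and the labels call their state colitis. Untreated KO mice (n = 6) and untreated WT mice (n = 6) carried no treatment label, and their age and handling were not given. Differences between treated and untreated mice may thus include differences in handling, and these cannot be told apart. The KO line had been backcrossed to the WT background, the groups were biological repeats, and the deleted part of Myd88 was not given. The Myd88 probe set averaged 8.00 ± 0.31 log2 units in treated KO and 8.46 ± 0.12 in treated WT mice (SD, n = 10 each), and 7.67 ± 0.11 in untreated KO and 8.40 ± 0.11 in untreated WT mice (SD, n = 6 each). The treated KO arrays reached 8.31, above the lowest treated WT array at 8.26.

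All values are log2 probe set signals after quantile normalization, and a difference of 1 log2 unit is a doubling. Any 2 arrays of the same group had a Pearson r of at least 0.935 over all genes. The deposited table has a floor at a linear signal of 10, below which no value lies. Differences are given as log2 difference ± standard error from a limma fit over all 32 arrays, with Benjamini-Hochberg adjusted p over the 18193 genes, and a gene was called at an adjusted p under 0.05. In whole tissue, more or fewer cells of a type and more or less RNA per cell cannot be told apart. Some arrays carried signals of other tissue. The mean of 13 squamous epithelium genes reached 11.65 in treated WT replicate 1, against group medians of 5.17 in treated KO, 7.78 in treated WT, 4.61 in untreated KO and 5.76 in untreated WT mice.

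The promoter windows of the members (250 bases before to 50 bases after the start of the gene, RefSeq, build GRCm38.p6) were searched on both strands for the short sequences known to carry this response. The ER stress element was searched as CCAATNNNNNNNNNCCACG, the second ER stress element as ATTGG and CCACG set 1 base apart, the core of the unfolded protein response element as TGACGTGG, and the core of the amino acid response element, which Atf4 binds, as TGATGNAA. Each ER stress element contains the CCAAT box by its definition. All 10 members had a window. The ER stress element was found in those of Hspa5, Creld2 and Dnajc3, against 0.119% of 32851 windows of the genome. The second ER stress element was found in Herpud1 alone among the members, against 0.0365% of windows. The unfolded protein response element core was found in 0 members and 0.676% of windows, and the amino acid response element core in Herpud1 and Trib3 and in 3.97% of windows. A CCAAT box on its own lay in 8 of the members and in 37.4% of windows. The elements were searched because they are known from genes of this response. The shares of windows are thus given for scale and are no test of the members.

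The windows with a match to an ER stress element or the amino acid response element core are shown, whatever the result of the gene. In the results that follow, Hspa5, Creld2 and Dnajc3 rose in KO mice, and Hspa5 and Creld2 rose in WT mice too. Herpud1 was lower in WT mice, and its KO difference of -0.31 had a limma adjusted p of 0.0504. No member passed in the test of the difference between the KO and WT responses. Trib3 passed in no comparison. Sdf2l1, which rose most in KO mice, and Xbp1, which also rose there, held none of these elements. Capitals mark the match. The Hspa5 window lies at chr2:34771840-34772139 on the plus strand, with the element at positions -65 to -47 from the start of the gene. That of Creld2 lies at chr15:88819396-88819695 on the plus strand, with the element at -126 to -108 on the opposite strand. The Dnajc3 window lies at chr14:118937682-118937981 on the plus strand, with the element at -105 to -87. In Herpud1, at chr8:94386179-94386478 on the plus strand, the amino acid response element core is at -112 to -105 on the opposite strand and the second ER stress element at -52 to -42. In Trib3, at chr2:152344011-152344310 on the minus strand, the amino acid response element core is at 15 to 22 on the opposite strand, past the start of the gene. A match describes the letters of the window and not a bound or active site.
Hspa5: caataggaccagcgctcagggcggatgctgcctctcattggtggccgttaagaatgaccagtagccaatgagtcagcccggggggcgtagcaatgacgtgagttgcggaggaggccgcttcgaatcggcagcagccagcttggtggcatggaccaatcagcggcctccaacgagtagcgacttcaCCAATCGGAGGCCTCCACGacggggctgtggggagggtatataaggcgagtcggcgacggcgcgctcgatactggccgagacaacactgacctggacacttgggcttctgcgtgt
Creld2: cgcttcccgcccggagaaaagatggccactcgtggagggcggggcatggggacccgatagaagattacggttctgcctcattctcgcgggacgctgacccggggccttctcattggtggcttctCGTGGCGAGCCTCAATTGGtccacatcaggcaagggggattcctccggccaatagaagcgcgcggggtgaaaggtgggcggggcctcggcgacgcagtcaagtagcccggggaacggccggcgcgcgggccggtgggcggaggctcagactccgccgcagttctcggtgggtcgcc
Dnajc3: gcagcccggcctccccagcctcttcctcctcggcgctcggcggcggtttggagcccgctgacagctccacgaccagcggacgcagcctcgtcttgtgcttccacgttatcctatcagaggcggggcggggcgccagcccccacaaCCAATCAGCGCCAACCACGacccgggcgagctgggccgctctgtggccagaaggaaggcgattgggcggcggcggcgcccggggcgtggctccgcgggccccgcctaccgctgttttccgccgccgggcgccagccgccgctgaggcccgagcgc
Herpud1: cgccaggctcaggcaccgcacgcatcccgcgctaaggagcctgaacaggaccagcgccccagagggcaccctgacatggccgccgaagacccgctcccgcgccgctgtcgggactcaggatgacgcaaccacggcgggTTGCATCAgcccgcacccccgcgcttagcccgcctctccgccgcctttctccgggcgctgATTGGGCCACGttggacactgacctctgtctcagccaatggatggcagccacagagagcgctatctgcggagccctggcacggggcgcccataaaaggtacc
Trib3: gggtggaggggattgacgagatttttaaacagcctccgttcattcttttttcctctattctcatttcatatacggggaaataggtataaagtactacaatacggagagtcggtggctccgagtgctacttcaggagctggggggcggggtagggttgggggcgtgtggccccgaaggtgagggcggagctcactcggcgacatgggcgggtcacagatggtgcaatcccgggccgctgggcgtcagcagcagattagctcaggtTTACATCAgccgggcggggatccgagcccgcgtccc

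In KO mice given AOM and DSS, 5 members were higher than in untreated KO mice and Atf4 was lower. Sdf2l1 (0.97 ± 0.15, 1.96-fold, adjusted p = 7.81e-05), Hspa5 (0.59 ± 0.13, 1.51-fold, adjusted p = 0.00193) and Creld2 (0.58 ± 0.13, 1.49-fold, adjusted p = 0.00246) rose most. Xbp1 and Dnajc3 rose less, by 0.27 ± 0.09 and 0.26 ± 0.07, Atf4 fell, and Herpud1, Ddit3, Dnajb9 and Trib3 did not pass. Thus 5 of 10 members rose and 1 fell, where 18.7% of all genes were called, 8.70% higher and 10.0% lower. Because earlier results were known when the members were chosen, such counts, here and below, are no test of the set. The median difference was 0.27 over the members and 0.00 over all genes. With median centring in place of quantile normalization 2820 genes were called in this comparison and 65.8% of them were higher, against 1582 higher and 1824 lower here, and 5 members were then called, all higher.

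**Figure D1:**
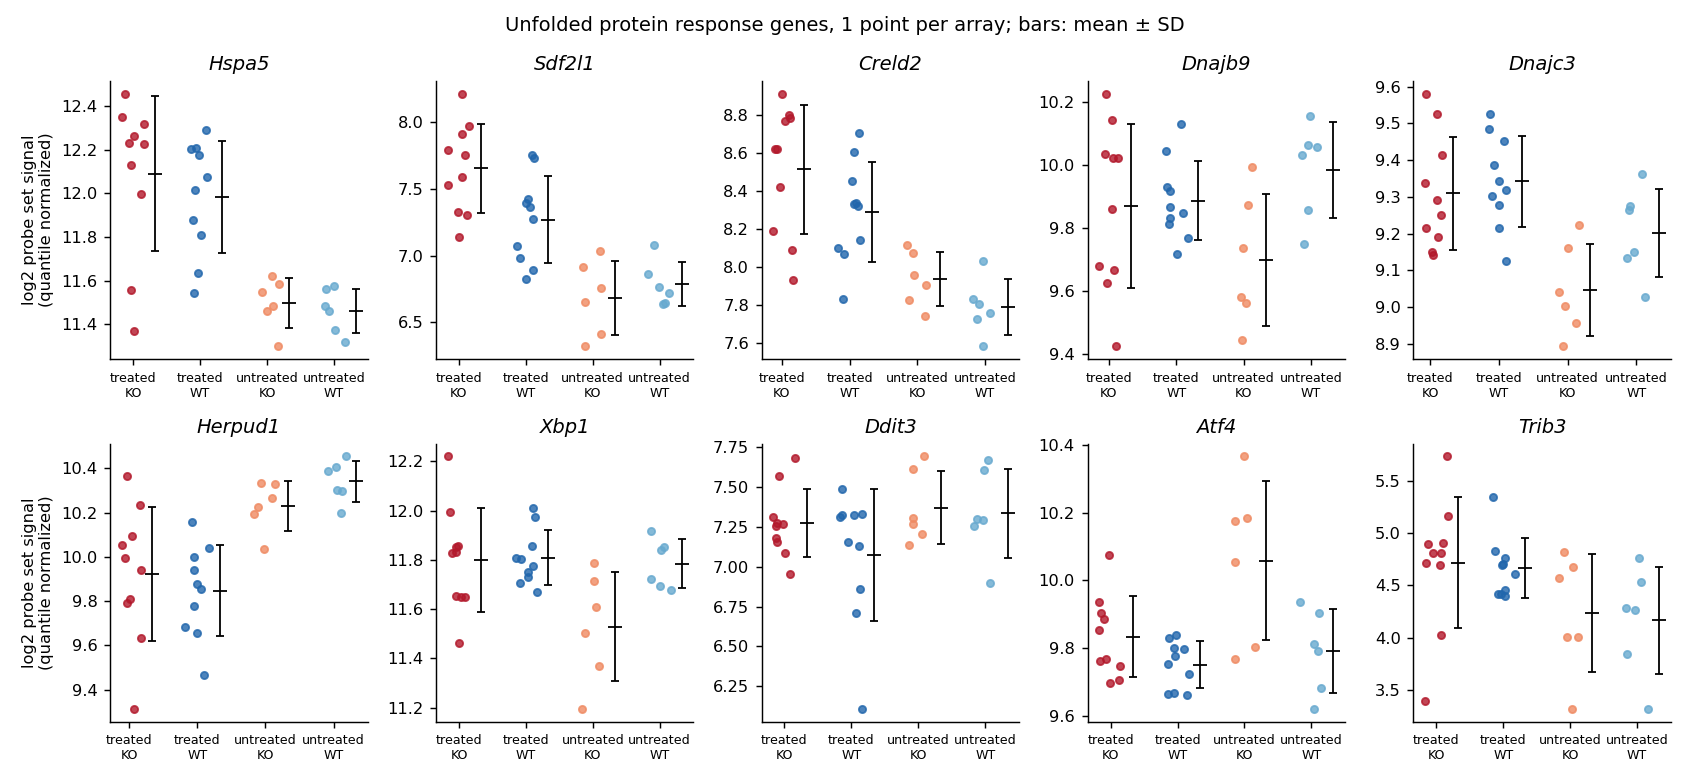
Log2 probe set signal (vertical axis, quantile normalized) of each member in treated KO, treated WT, untreated KO and untreated WT mice, with 1 point per array and the mean ± SD beside the points. All 10 treated KO arrays of Sdf2l1 lie above the 6 untreated KO arrays, and all 10 treated WT arrays of Herpud1 lie below the 6 untreated WT arrays. The vertical scale differs between panels and does not start at 0.

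Hspa5 encodes BiP, the major chaperone of the ER, which also holds the sensors inactive. Its signal was 11.37 at the lowest, 12.23 at the median and 12.46 at the highest in treated KO mice. In treated WT mice it was 11.54, 12.04 and 12.29, in untreated KO mice 11.30, 11.52 and 11.62, and in untreated WT mice 11.32, 11.47 and 11.57. Of the treated KO arrays 8 of 10 lay above every untreated KO array, and of the treated WT arrays 9 of 10 lay above every untreated WT array. The remaining treated KO arrays, replicates 6 and 9, lay at 11.56 and 11.37 within the untreated range. The rise in WT mice was 0.52 ± 0.13 (1.43-fold, adjusted p = 0.0331), and the KO rise exceeded it by 0.07 ± 0.18 (interaction, adjusted p = 0.938). In order of mean level the groups ran treated KO, treated WT, untreated KO, untreated WT, and the call fell between the treated and untreated groups of each genotype, not between genotypes.

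Sdf2l1 encodes an ER protein that works with the BiP co-chaperones and is induced by ER stress. It measured 7.14, 7.67 and 8.22 (lowest, median and highest) in treated KO mice and 6.82, 7.32 and 7.76 in treated WT mice. In untreated KO mice it measured 6.32, 6.71 and 7.04, and in untreated WT mice 6.64, 6.75 and 7.08. The treated and untreated KO arrays did not overlap, a pattern that 1.09% of all genes showed in the same direction. In WT mice 6 of 10 treated arrays lay above every untreated one, and the difference of 0.48 ± 0.15 did not pass (adjusted p = 0.0985). Among the members Sdf2l1 had the largest KO response, and its call held in all 49 alternatives of the processing that were run, at values between 0.83 and 1.06. The KO response exceeded the WT response by 0.49 ± 0.22, which did not pass (interaction, adjusted p = 0.370).

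Creld2 encodes a secreted and ER resident disulfide isomerase, also known as an ER stress gene. The treated KO arrays ran from 7.93 over a median of 8.62 to 8.91, and the treated WT arrays from 7.83 over 8.32 to 8.70. Untreated KO arrays ran from 7.74 over 7.93 to 8.11, and untreated WT arrays from 7.58 over 7.78 to 8.03. Again 8 of 10 treated KO arrays lay above all untreated KO arrays and 9 of 10 treated WT arrays above all untreated WT arrays, so the groups overlapped through 1 or 2 low treated arrays. The rise in WT mice was 0.50 ± 0.13 (1.41-fold, adjusted p = 0.0414).

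Dnajc3 and Dnajb9 are co-chaperones of the DnaJ family that act with BiP. Dnajc3, known as p58IPK, also dampens PERK. It measured 9.14, 9.27 and 9.58 (lowest, median, highest) in treated KO mice, 9.13, 9.33 and 9.53 in treated WT mice, 8.89, 9.02 and 9.23 in untreated KO mice, and 9.03, 9.21 and 9.36 in untreated WT mice. In KO mice it rose by 0.26 ± 0.07 (1.20-fold, adjusted p = 0.00762), with 6 of 10 treated arrays above every untreated one. The WT difference was 0.14 ± 0.07 (adjusted p = 0.338). Dnajb9, known as ERdj4, overlapped between all groups. Its median was 9.94 in treated KO, 9.86 in treated WT, 9.66 in untreated KO and 10.05 in untreated WT mice. It differed by 0.17 ± 0.10 in KO mice (adjusted p = 0.253) and by -0.10 ± 0.10 in WT mice (adjusted p = 0.728).

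Herpud1 differed in the opposite direction from Hspa5 and Creld2. It encodes a membrane protein of ER-associated degradation, the route that returns misfolded proteins to the cytosol, and is known as a strong ER stress target. It measured 9.31, 9.97 and 10.36 (lowest, median, highest) in treated KO mice and 9.47, 9.87 and 10.16 in treated WT mice. In untreated KO mice it measured 10.03, 10.24 and 10.33, and in untreated WT mice 10.20, 10.34 and 10.45. The treated and untreated WT arrays did not overlap, and Herpud1 fell by 0.49 on the log2 scale in WT mice (SE 0.11, 1.41-fold, adjusted p = 0.0169), where 0.890% of all genes showed such a separation downwards. In KO mice 6 of 10 treated arrays lay below every untreated one and 1 lay above them all, at a difference of -0.31 ± 0.11 (adjusted p = 0.0504). That KO value sat at the threshold and passed in 12 of 49 alternatives, 7 of which left out 1 array (treated KO replicate 1, 3, 8 or 9, treated WT replicate 1 or 10, or untreated KO replicate 2; adjusted p from 0.0154 to 0.0462).

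Among the transcription factors, Xbp1 rose and Atf4 fell in KO mice, each by a small amount. Xbp1 measured 11.46, 11.83 and 12.22 (lowest, median, highest) in treated KO mice, 11.67, 11.79 and 12.01 in treated WT mice, 11.19, 11.56 and 11.79 in untreated KO mice, and 11.68, 11.78 and 11.92 in untreated WT mice. The untreated KO group was the low one, with 4 of 6 arrays below every untreated WT array. The KO difference was 0.27 ± 0.09 (1.21-fold, adjusted p = 0.0289) and the WT difference 0.02 ± 0.09 (adjusted p = 0.972). The KO call ended without any one of treated KO replicate 3 (0.22, adjusted p = 0.05001), untreated KO replicate 2 (0.24, adjusted p = 0.0819), replicate 5 (0.20, adjusted p = 0.112) and replicate 6 (0.27, adjusted p = 0.0518). With only the KO arrays in the fit it ended too (adjusted p = 0.129).

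Atf4 measured 9.70, 9.81 and 10.07 (lowest, median, highest) in treated KO mice, 9.66, 9.76 and 9.84 in treated WT mice, 9.77, 10.11 and 10.37 in untreated KO mice, and 9.62, 9.80 and 9.94 in untreated WT mice. Here the untreated KO group was the high one, with 4 of 6 arrays above every untreated WT array and 3 of 6 above every treated KO array. In KO mice Atf4 fell by 0.23 on the log2 scale (SE 0.07, 1.17-fold, adjusted p = 0.0240), and in WT mice it differed by -0.04 ± 0.07 (adjusted p = 0.869). The KO call ended without untreated KO replicate 2 (-0.20, adjusted p = 0.0693), 4 (-0.20, adjusted p = 0.0634) or 5 (-0.16, adjusted p = 0.102). It also ended with median centring (-0.10, adjusted p = 0.5004), with the values as deposited (-0.19, adjusted p = 0.0740) and with only the KO arrays in the fit (adjusted p = 0.112).

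The PERK branch targets Ddit3 and Trib3 passed in no comparison. Ddit3, which encodes the stress factor CHOP, had medians of 7.26 in treated KO, 7.23 in treated WT, 7.29 in untreated KO and 7.30 in untreated WT mice. Its differences were -0.10 ± 0.16 in KO mice (adjusted p = 0.744) and -0.26 ± 0.16 in WT mice (adjusted p = 0.449), with treated WT replicate 1 the lowest array at 6.11. Trib3, a pseudokinase that Atf4 and CHOP induce, was dim. Its medians were 4.81 in treated KO, 4.65 in treated WT, 4.29 in untreated KO and 4.27 in untreated WT mice, and 1 array of each untreated group lay on the floor. The Trib3 differences of 0.48 ± 0.26 in KO mice (adjusted p = 0.204) and 0.50 ± 0.26 in WT mice (adjusted p = 0.373) were close to Creld2's in size but had larger standard errors.

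**Figure D2:**
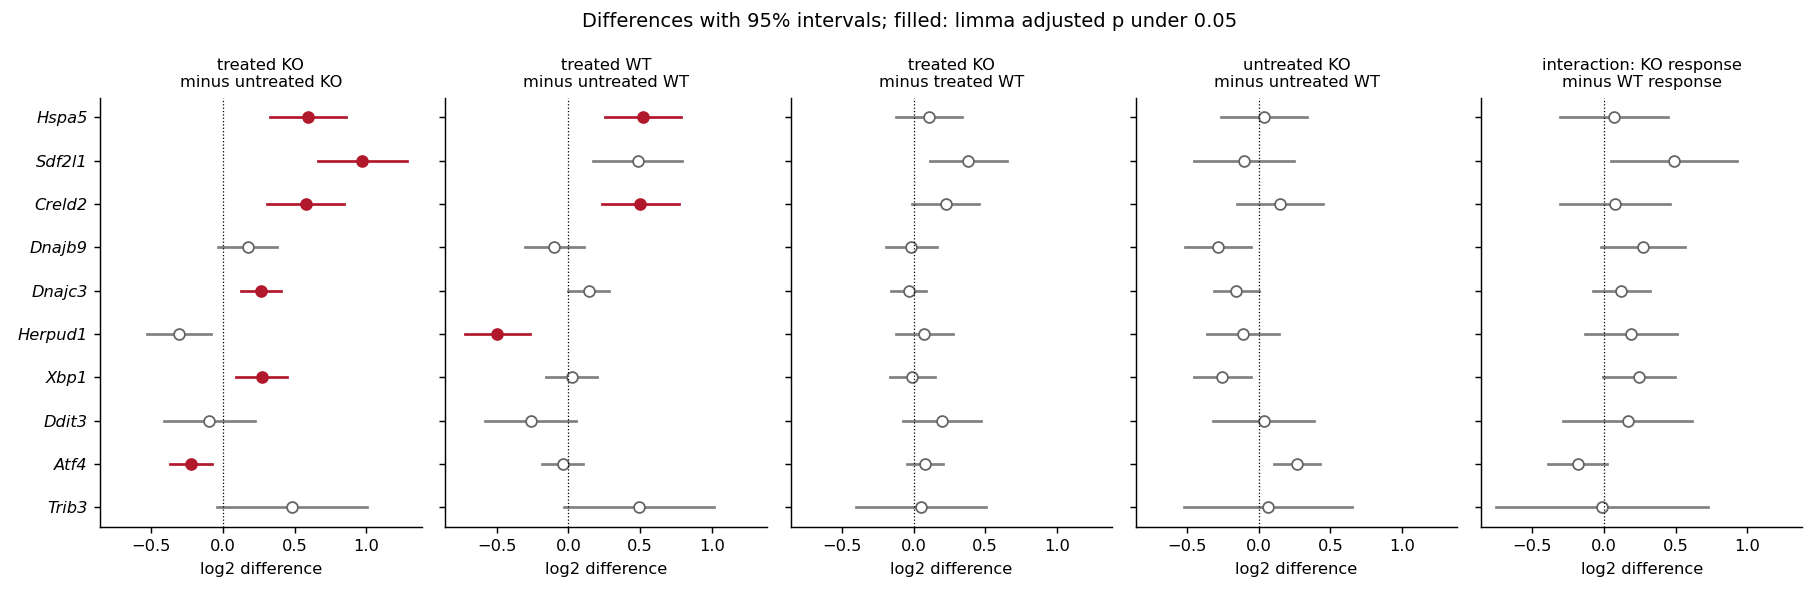
Log2 difference of each member (horizontal axis, log2 units) with its 95% interval in the 5 comparisons, filled where the limma adjusted p was under 0.05. Filled points appear in the comparisons of treated with untreated mice alone: 6 in KO mice and 3 in WT mice.

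Fewer members passed between treated and untreated WT mice. Hspa5 and Creld2 rose and Herpud1 fell, so that 3 of 10 members were called where 1.84% of all genes were, 0.605% higher and 1.24% lower. The member median was 0.08, against 0.00 over all genes. The rises of Hspa5 and Creld2 stood close to the threshold: each was lost in 11 of the 32 fits that left out 1 array, with adjusted p up to 0.0816 for Hspa5 and 0.114 for Creld2. The arrays whose absence ended both calls were treated WT replicates 1, 3, 5, 6 and 7 and untreated WT replicates 1, 2, 4, 5 and 6. Untreated WT replicate 3 ended that of Hspa5 and treated WT replicate 9 that of Creld2. Herpud1 passed in all 32 of those fits, with adjusted p up to 0.0481. Hspa5 did not pass with the values as deposited (0.44, adjusted p = 0.0661), and with median centring none of the 3 passed (adjusted p of 0.104 for Hspa5, 0.0669 for Creld2 and 0.0764 for Herpud1).

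Between treated KO and treated WT mice no member passed, in a comparison that called 12.8% of all genes (1135 higher and 1196 lower with quantile normalization, and 1864 genes with 74.6% higher with median centring). By the same limma test without adjustment p was under 0.05 for Sdf2l1 alone. Of the members 7 of 10 had a positive difference, at a median of 0.08 against 0.00 over all genes. Sdf2l1 came nearest at 0.38 ± 0.13 (95% interval 0.11 to 0.65, adjusted p = 0.0531). Of its arrays 4 of 10 treated KO ones lay above every treated WT one, and 4 of 10 treated WT ones below every treated KO one. Leaving out treated KO replicate 6 (0.44, adjusted p = 0.0227), 7 (0.42, adjusted p = 0.0398) or 10 (0.42, adjusted p = 0.0381), or treated WT replicate 3 (0.43, adjusted p = 0.0292) or 6 (0.44, adjusted p = 0.0268), took it past the threshold. Creld2 differed by 0.22 ± 0.11 (95% interval -0.01 to 0.46, adjusted p = 0.212) and Hspa5 by 0.11 ± 0.11 (95% interval -0.12 to 0.34, adjusted p = 0.614). For Dnajc3 (95% interval -0.16 to 0.09) and Xbp1 (95% interval -0.16 to 0.15) the intervals were narrower. They hold for the probe set used alone, and other Dnajc3 probe sets passed at 0.32 and 0.22, as given below.

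Without treatment no member passed between KO and WT mice either, where 0.115% of all genes were called. Unadjusted p was under 0.05 for 3 members: Atf4 was at 0.27 ± 0.08 (unadjusted p = 0.00207, adjusted p = 0.364), Xbp1 at -0.25 ± 0.10 (adjusted p = 0.569) and Dnajb9 at -0.29 ± 0.11 (adjusted p = 0.577). In the test of the difference between the KO and WT responses 0.0550% of all genes and no member passed. Unadjusted p was under 0.05 for Sdf2l1 alone (0.49, 95% interval 0.05 to 0.93, unadjusted p = 0.0315). The larger number of members called in KO than in WT mice is thus not a tested difference between the genotypes. The 3 comparisons of KO with WT mice and the 2 responses share arrays and are not independent of each other.

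Several members had more than 1 probe set, and these did not always move together. The 3 probe sets of Hspa5 differed in KO mice by 0.59 ± 0.13 (the one used), 0.82 ± 0.13 and 0.19 ± 0.10, the last with a suffix (_x_at) that marks possible cross-hybridization. In WT mice they differed by 0.52 ± 0.13, 0.66 ± 0.13 and -0.07 ± 0.10 in the same order, and the WT call of Hspa5 was lost with its probe sets averaged (0.37, adjusted p = 0.0523). All 5 Dnajc3 probe sets were higher in treated KO mice, between 0.23 and 0.53, and 4 of them passed over all probe sets. The other Herpud1 probe set was at -0.21 ± 0.10 in KO mice and -0.43 ± 0.10 in WT mice, and its WT value passed over all probe sets (adjusted p = 0.0255). For Xbp1 the probe set used and another one lay at 0.27 and 0.26, a dimmer one at 0.03 and the dimmest at -0.46 ± 0.20. Averaging the 4 gave Xbp1 a KO difference of 0.03 (adjusted p = 0.870).

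The remaining probe sets bear on Atf4, Trib3 and the genotypes. The 2 other Atf4 probe sets differed by -0.07 ± 0.11 and, in the one near the floor, by 0.00 ± 0.04 in KO mice, and Atf4 was at -0.10 (adjusted p = 0.191) with its probe sets averaged. The 2 Trib3 probe sets had opposite signs in KO mice, 0.48 ± 0.26 and -0.47 ± 0.32, both near the floor. Between treated KO and treated WT mice, Dnajc3 passed with 2 probe sets that were not used (0.32 ± 0.07, adjusted p = 0.00640, and 0.22 ± 0.07, adjusted p = 0.0284), while the one used was at -0.03 ± 0.06. Hspa5 likewise passed in the x_at probe set (0.27 ± 0.09, adjusted p = 0.0477). The call on Dnajc3 between treated genotypes therefore depends on the probe set.

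**Figure D3:**
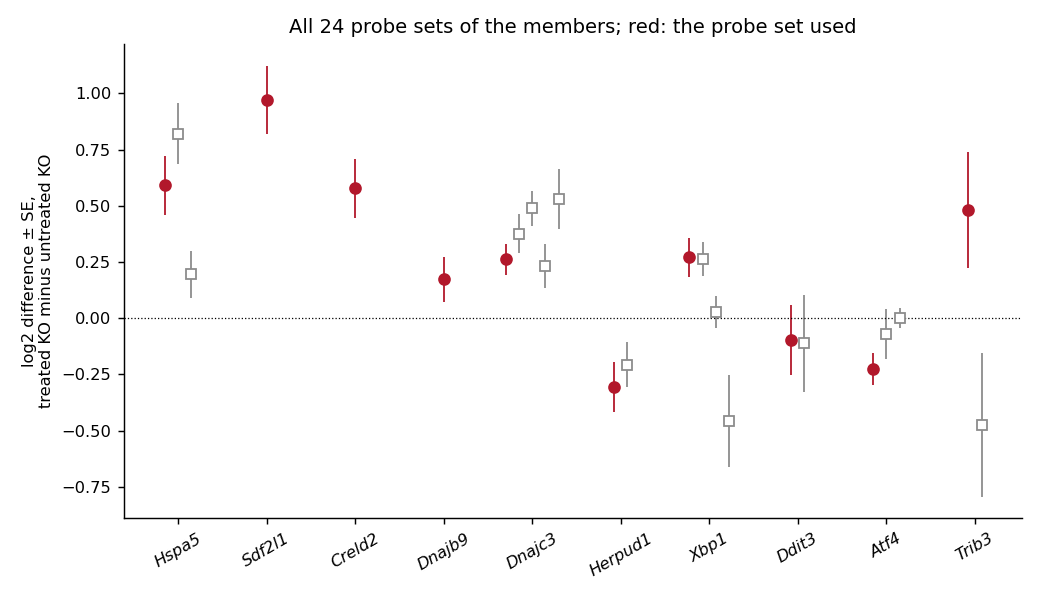
Log2 difference ± SE between treated and untreated KO mice (vertical axis) for all 24 probe sets of the members, with the probe set used in red and the others as open squares. The 5 Dnajc3 probe sets all lie above 0, while those of Xbp1 and Trib3 lie on both sides of it.

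Across arrays, members were compared by their deviations from the group mean, which removes the differences between groups. Of 45 pairs 25 had a positive Pearson correlation, with a median r of 0.10. Permutation within groups (100000 permutations, two-sided, adjusted over the 45 pairs) put 7 pairs past 0.05, all positive, and 4 of these passed by Spearman's correlation too. Hspa5 and Creld2 had the highest r, 0.742 (permutation p = 5e-05, adjusted p = 0.00225) with rho 0.677 (permutation p = 0.00012, adjusted p = 0.00540), and r was 0.631 without the 2 arrays farthest from the median of Hspa5. Within groups their r was 0.772 in treated KO, 0.829 in treated WT, 0.236 in untreated KO and 0.241 in untreated WT mice. Sdf2l1 and Creld2 followed at r = 0.624 (adjusted permutation p = 0.0164) and rho = 0.640 (adjusted permutation p = 0.00870), with 0.095 in untreated KO mice and 0.615 or more in the other groups.

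Atf4 varied with Sdf2l1 and Creld2 from array to array although its group means ran the other way in KO mice. Its r was 0.503 with Sdf2l1 (adjusted permutation p = 0.0177; rho 0.573, adjusted permutation p = 0.00870) and 0.467 with Creld2 (adjusted permutation p = 0.0177; rho 0.533, adjusted permutation p = 0.0158). With the other members Atf4 did not pass, at r = 0.279 with Hspa5, -0.068 with Dnajb9 and -0.127 with Dnajc3. Within treated WT mice the r of Atf4 with Sdf2l1 was 0.136, against 0.604 or more in the other groups. Xbp1 went with Dnajc3 (r = 0.578) and Hspa5 (r = 0.551), and Creld2 with Dnajc3 (r = 0.502), by Pearson's correlation alone; the adjusted permutation p of rho was 0.0768 or more for these 3 pairs. Herpud1 had r of -0.348 with Hspa5 and -0.24 with Creld2, and neither passed. Arrays share their RNA quality and cell content, so these values describe covariation within this set of arrays.

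**Figure D4:**
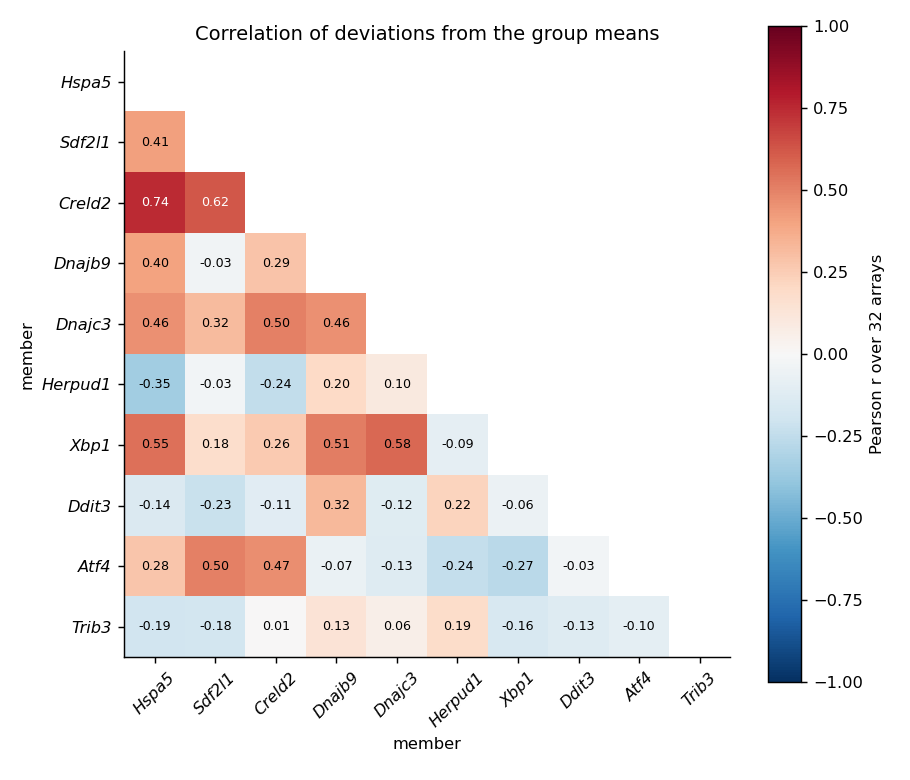
Pearson r over 32 arrays between the members' deviations from their group means, one cell per pair, on a colour scale from -1 to 1. The highest cell joins Hspa5 and Creld2, at 0.74. Values near or below 0 occur among the chaperones and co-chaperones too, as between Sdf2l1 and Dnajb9 at -0.03.

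The genes whose deviations were most like those of Hspa5 over the 32 arrays, among the 10915 other genes brighter than the 40th percentile, were Atp2a2 (r = 0.852, rho = 0.738), Nrg1 (r = 0.778), Dynll1 (r = 0.758), Rab31 (r = 0.753) and Tmsb4x (r = 0.744). Atp2a2 encodes SERCA2, the pump that fills the ER with calcium. Creld2 ranked 8 in that order and Sdf2l1 ranked 821. For the dim Trib3 the order was Cpne5 (r = 0.650), Kdm1a (r = 0.640), A630026N12Rik (r = 0.632), Ddx46 (r = 0.625) and Utp14a (r = 0.617), and the member nearest to it, Herpud1, ranked 2571 at r = 0.19.

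Other genes of the pathway were read from lists by role, which were also chosen with earlier results of these data known. In KO mice the ER folding list, of chaperones and disulfide isomerases, had 9 of 27 genes higher and 2 lower, with a median of 0.14, beside 8.70% and 10.0% of all genes. Pdia4 (0.89 ± 0.21, adjusted p = 0.00313) and the BiP co-chaperone Dnajb11 (0.77 ± 0.11, adjusted p = 1.52e-05) led them, with Calr, which encodes the lectin chaperone calreticulin (0.68 ± 0.09, adjusted p = 1.62e-05). Dnajb11 averaged 9.16 in treated KO, 8.63 in treated WT, 8.38 in untreated KO and 8.42 in untreated WT mice, and its treated and untreated KO arrays did not overlap. Pdia5 fell by 0.61 and Cnpy2 by 0.18 on the log2 scale. Ppib, the brightest member that did not pass, was at 0.01 ± 0.04. In WT mice 3 of 27 rose, Calr (0.47 ± 0.09, adjusted p = 0.00783), the glycoprotein folding sensor Uggt1 (0.28 ± 0.07) and Pdia3 (0.27 ± 0.07), and none fell. Of all genes 0.605% were higher and 1.24% lower in WT mice.

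Genes of ER-associated degradation rose in 6 of 19 cases and fell in 2 in KO mice, at a median of 0.17. Ube2j1, a ubiquitin conjugating enzyme of the ER, rose by 0.45 ± 0.07 (adjusted p = 4.11e-05), and Edem1 (0.32 ± 0.08) and Edem3 (0.31 ± 0.07), which trim the sugars of misfolded glycoproteins, rose as well. The ubiquitin ligase gene Rnf5 fell by 0.32 and the retrotranslocation factor gene Derl1 by 0.22 on the log2 scale, and the bright Selenos was at -0.08 ± 0.07. Of 26 genes of translocation and vesicle transport 5 rose and 1 fell, at a median of 0.04, where 8.70% of all genes rose and 10.0% fell. Sec23b, a coat protein of vesicles leaving the ER (0.50 ± 0.08), Srprb (0.41 ± 0.09) and Sec61b of the translocation channel (0.28 ± 0.07) rose, Sec62 fell by 0.23 on the log2 scale, and Spcs1 was at 0.01 ± 0.05. In WT mice 0 of 19 and 0 of 26 passed the limma test, at medians of 0.09 and 0.04, where only 1.84% of all genes passed. With unadjusted limma p under 0.05 there were 3 higher and 2 lower degradation genes and 4 higher and 1 lower transport genes.

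Of 10 sensor and processing genes 1 rose and 1 fell in KO mice, where 18.7% of all genes were called. Eif2ak3, which encodes PERK, rose (0.27 ± 0.07, adjusted p = 0.00584) and Ern2, the IRE1 form of gut epithelium, fell (-0.57 ± 0.16, adjusted p = 0.0122). Mbtps1, the protease that cuts ATF6 in the Golgi and the brightest that did not pass, was at -0.07 ± 0.06. The sensor median was 0.04 in KO mice and 0.03 in WT mice. In WT mice none of the 10 passed limma's test, where only 1.84% of all genes did, and 1 had an unadjusted p under 0.05.

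Targets of the integrated stress response, the arm that runs through Atf4, rose in 8 of 30 cases in KO mice and fell in none, at a median of 0.28. Over all genes 8.70% were higher and 10.0% lower. They were led by Nupr1, a stress-induced chromatin protein (1.13 ± 0.22, adjusted p = 0.000570), Cebpb, a transcription factor of inflammation (0.88 ± 0.24, adjusted p = 0.0103), and Stc2, a secreted glycoprotein (0.81 ± 0.16, adjusted p = 0.000708). Ddit4, the brightest that did not pass, was at 0.12 ± 0.19. Thus 8 of 30 genes of the Atf4 list were called higher while the Atf4 transcript fell by 0.23 and Ddit3 and Trib3 did not pass. The call on Atf4 was lost in 12 of 49 alternatives. Among these were median centring (-0.10, limma adjusted p = 0.5004) and the mean of its probe sets (-0.10, limma adjusted p = 0.191). In WT mice 0 of 30 passed the limma test, where 1.84% of all genes did. The median was 0.10, and 4 had an unadjusted p under 0.05, all higher. Among the dim genes of this list was Fgf21, on the floor on 25 of 32 arrays.

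Between treated KO and treated WT mice, where no member and 12.8% of all genes passed (1135 of 18193 higher), these lists held calls. Integrated stress response targets were higher in treated KO mice in 8 of 30 cases, transport genes in 6 of 26, folding genes in 4 of 27, degradation genes in 3 of 19 and sensors in 2 of 10, and only Derl1 (-0.25 ± 0.06, adjusted p = 0.00569) was lower and called. Dnajb11 was higher by 0.52 ± 0.09 (adjusted p = 0.000462), Stc2 by 0.66 ± 0.14 (adjusted p = 0.00215), Nupr1 by 0.57 ± 0.19 (adjusted p = 0.0429) and Calr by 0.28 ± 0.08 (adjusted p = 0.0228). The list medians in this comparison lay between -0.05 for the sensors and 0.20 for the integrated stress response, against 0.00 over all genes. Between untreated genotypes, and in the test of the difference between the responses, none of the 5 lists held a gene called by limma, where 0.115% and 0.0550% of all genes were called. With unadjusted p under 0.05 there were 0 to 3 genes a list between untreated genotypes and 1 to 6 in the difference of the responses.

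**Figure D5:**
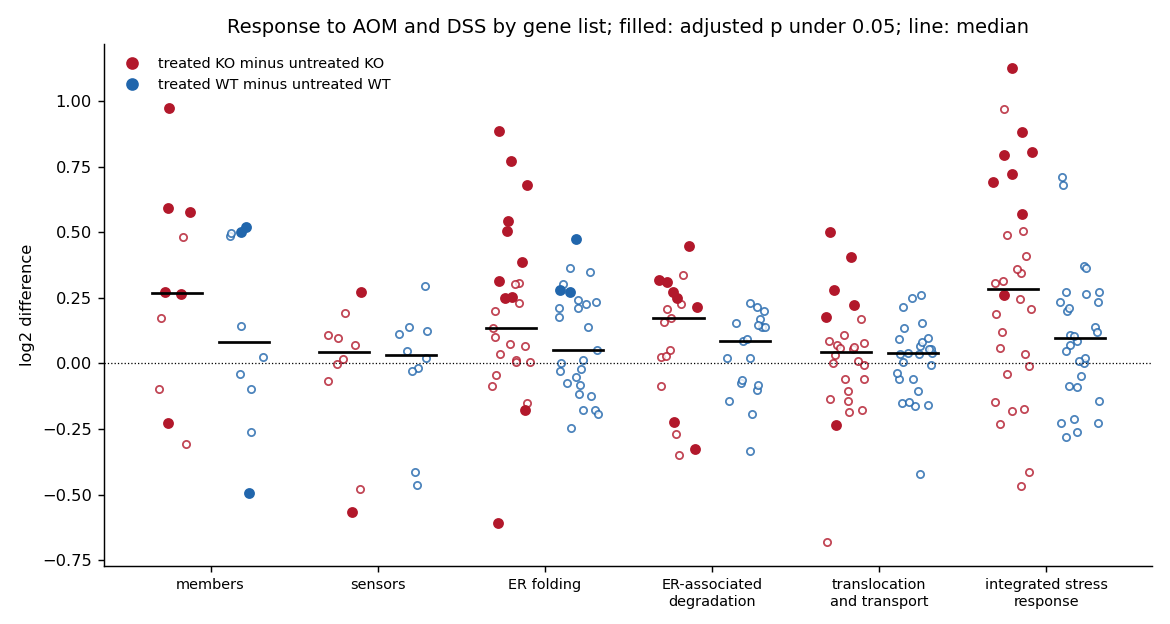
Log2 difference between treated and untreated mice (vertical axis) for each gene of the members and of 5 lists of the pathway, KO in red and WT in blue, filled where the adjusted p was under 0.05, with a line at the list median. Filled points lie mostly above 0 in KO mice and are 3 for the members and 3 for ER folding in WT mice.

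Among markers of cell types rich in ER, goblet cell genes rose in KO mice in 6 of 16 cases and fell in 2, at a median of 0.16. Of all genes 8.70% were higher and 10.0% lower in KO mice, and 1.84% were called in WT mice. In WT mice 0 of 16 passed the limma test at a median of 0.01, with 3 higher and 4 lower at an unadjusted p under 0.05. Their mean ran from 10.31 to 11.11 in treated KO, 10.08 to 10.64 in treated WT, 10.08 to 10.44 in untreated KO and 10.12 to 10.26 in untreated WT mice. Retnlb, a goblet cell protein of mucosal defence, had the largest difference of the list in KO mice at 4.28, while Muc2 (0.21 ± 0.08, adjusted p = 0.0631) and Zg16, the brightest goblet gene (0.00 ± 0.04), did not pass. With the goblet mean as a covariate Sdf2l1 kept its call in KO mice (0.83, adjusted p = 0.0414) and the other 5 members lost theirs: Hspa5 was at 0.25 (adjusted p = 0.487), Creld2 at 0.30 (adjusted p = 0.422), Dnajc3 at 0.20 (adjusted p = 0.344), Xbp1 at 0.10 (adjusted p = 0.753) and Atf4 at -0.28 (adjusted p = 0.152). With Retnlb left out of that mean, a setting chosen after the values were seen, Sdf2l1 was at 0.90 (adjusted p = 0.00431), Hspa5 at 0.47 (adjusted p = 0.0614) and Creld2 at 0.44 (adjusted p = 0.0797), and Dnajc3, Xbp1 and Atf4 did not pass (adjusted p of 0.105, 0.202 and 0.0732). Over all genes, calls in KO mice went from 3406 to 186 with the goblet covariate, and to 1010 without Retnlb in it. The loss of calls was thus not particular to the members. The covariate itself moved with treatment and genotype. Between treated KO and treated WT mice 8 of 16 goblet cell genes were higher and called, beside the pathway lists above. In that comparison 12.8% of all genes were called.

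B and plasma cell genes, another secretory lineage with much ER, ran the opposite way. Of 13 genes 6 were called lower in KO mice and 4 in WT mice, where 10.0% and 1.24% of all genes were lower. None was called higher, though 1 was higher in KO mice at an unadjusted limma p under 0.05. The medians were -0.59 and -0.40, and Igha, the brightest, fell by 1.19 on the log2 scale in KO mice. The mean of the 13 genes ran from 5.97 to 7.02 in treated KO, 6.36 to 7.26 in treated WT, 6.50 to 7.58 in untreated KO and 6.82 to 7.71 in untreated WT mice. The plasma cell receptor Tnfrsf17 was on the floor on 12 of 32 arrays. With this mean as a covariate Sdf2l1 was at 0.92 and Creld2 at 0.48 (adjusted p = 0.0714) in KO mice. In WT mice no member then passed: Hspa5 was at 0.55 (adjusted p = 0.0547), Creld2 at 0.44 (adjusted p = 0.115) and Herpud1 at -0.45 (adjusted p = 0.0587). Colonocyte genes were higher in KO mice in 5 of 10 cases and lower in WT mice in 1, though Lgals4, the brightest, was at 0.00 ± 0.04 in KO mice. Enteroendocrine genes were higher in 7 of 8 cases in KO mice and 3 of 8 in WT mice. Of all genes 8.70% were higher in KO mice and 0.605% in WT mice. Macrophage and neutrophil genes were higher in 2 of 10 cases in KO mice, and in WT mice limma called 0 of 10, with 4 higher at an unadjusted p under 0.05. The part of these cells in the members' differences was not tested beyond those covariates.

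Markers of squamous epithelium, skeletal muscle and smooth muscle were read in both genotypes. In KO mice limma called none of them, where 18.7% of all genes were called. The medians were 0.17 for squamous epithelium, 0.42 for skeletal muscle and 0.27 for smooth muscle. Of the smooth muscle genes 3 of 8 had an unadjusted limma p under 0.05. All 13 squamous epithelium genes were higher in treated than untreated WT mice, with 1 called, at a median of 2.14. All 10 skeletal muscle genes were higher there too, with none called, at a median of 1.51. At an unadjusted limma p under 0.05 there were 9 and 3 genes of these lists. Of all genes 1.84% were called in WT mice, with 0.605% higher and 1.24% lower. In the test of the difference between the responses limma called none of these genes, and none had an unadjusted p under 0.05. In that test 0.0550% of all genes were called. Ivl was on the floor on 19 arrays and Myh2 on 16. With the means of the squamous epithelium and skeletal muscle lists as covariates none of the members passed in WT mice: Hspa5 was at 0.46 (adjusted p = 0.117), Creld2 at 0.46 (adjusted p = 0.136) and Herpud1 at -0.48 (adjusted p = 0.0581). Without treated WT replicates 1 and 2 Herpud1 alone passed, with Hspa5 at 0.50 (adjusted p = 0.0533) and Creld2 at 0.50 (adjusted p = 0.0611). All 8 smooth muscle genes were higher in treated WT mice with none called, at a median of 0.27. The 3' minus 5' difference of the Actb control probe sets, which reads RNA integrity, was 0.330 ± 0.056 in treated KO, 0.376 ± 0.046 in treated WT (SD, n = 10 each), 0.459 ± 0.088 in untreated KO and 0.447 ± 0.027 in untreated WT mice (SD, n = 6 each). That of Gapdh was -0.392 ± 0.045, -0.397 ± 0.031, -0.481 ± 0.054 and -0.418 ± 0.015 in the same groups. In both genotypes the Actb mean was lower and the Gapdh mean higher in treated than in untreated mice. The controls thus moved in opposite directions, and their mean is not a clear reading of RNA integrity. With the mean of both as a covariate Hspa5 (0.44, adjusted p = 0.0831) and Creld2 (0.44, adjusted p = 0.107) lost their WT calls, and Xbp1 its KO call (0.25, adjusted p = 0.0562).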

How the data were processed

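RNA of the distal colon was measured on 32 Affymetrix arrays. The deposited values are log2 probe set signals that the authors had summarised and scaled before deposit. From the values, the 2% trimmed mean of the linear signal lay between 150.9 and 151.3 on every array, and 18.7% to 23.9% of probe sets per array sat at the floor. The software and build are not given in the sources used here. Of 45101 probe sets 34958 had 1 gene symbol in the platform annotation, 932 several and 9211 none, and only the first were used. Arrays were quantile normalized, and the model over the brightest probe set per gene used R 4.3.3 and its package limma 3.58.1 (4 group means, two-sided, 28 residual and 1.10 prior degrees of freedom). This pipeline was tested on simulated data. The number of arrays limits the precision.

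All members were named, with up to 3 called genes per direction in KO mice and the brightest uncalled gene of each pathway list. Marker genes were named by their place in their lists or their floor values, after these were seen. The members and lists were chosen with earlier results of these data known. The main fit did not pair arrays by the repeat numbers in the labels. Deviations from the group mean of same-numbered arrays had median correlations between -0.058 and 0.038, with single pairs up to 0.343. These values cannot exclude a pairing. Alternatives changed normalization, filter, probe set rule, variance prior, samples, covariates and threshold. A covariate without Retnlb was added after seeing the data.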

Additional observations from a re-analysis of the deposited data

Results flagged for a closer look

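Trib3 in treated WT replicate 1 stood apart from the rest of its group, at 5.3409 log2 units (5.34) where the next highest treated WT array was at 4.83. That array also had the highest squamous epithelium mean of the 32 arrays. Of 40 groups of arrays examined this way 1 stood out, and chance flags about 1 group in 20.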

How the results depend on the processing

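The 10 members in 5 comparisons (50 values) were recomputed under 49 alternatives, of which 32 left out 1 array each. With dimmer genes left out Trib3 had no value. Of the 2435 outcomes 2336 kept their side of the threshold, whatever their sign, 78 lost a call, 21 gained one and 0 reversed a call. Among those 2336, signs changed in 71 outcomes of 14 comparisons that were not called. None changed sign in the 9 called ones. Between treated KO and treated WT mice the count of members called was 0, and 1 (Sdf2l1) with dimmer genes left out, median centring or a trended and robust prior, and 0 to 1 without single arrays. In the WT response it was 3. It was 1 with the 3'/5' or goblet covariate or without treated WT replicates 1 and 2. It was 0 with the B and plasma cell or the squamous and skeletal muscle covariates, median centring, a 0.01 threshold or a 1.5-fold minimum, and 1 to 3 without single arrays. In the KO response it was 6, then 2 with a 1.5-fold minimum, 1 with either goblet covariate, and 4 to 7 without single arrays. With the replicate block the counts stayed at 6, 3 and 0, with Herpud1 (-0.37, adjusted p = 0.0406) in place of Atf4 (-0.20, adjusted p = 0.0844) in KO mice. The goblet covariate without Retnlb was chosen after seeing the data. Over all genes, the KO response had 3406 calls, against 186 with the goblet covariate, 1010 without Retnlb in it, 1741 with the B and plasma cell one, 1919 with only the compared groups, 1824 at 0.01, 1242 at 1.5-fold and 5508 with each probe set tested. Treated KO against treated WT had 2331, against 81 with the goblet covariate, 147 without Retnlb in it, 818 with the B and plasma cell one, 1535 with the squamous and skeletal muscle ones, 1338 with only the compared groups, 1005 at 0.01, 500 at 1.5-fold and 3758 with each probe set tested. The WT response had 335, against 891 with only the compared groups, 1459 with array weights, 159 with the 3'/5' covariate, 213 with median centring, 218 with the goblet covariate, 219 with the squamous and skeletal muscle ones, 67 at 0.01, 187 at 1.5-fold, and 165 to 447 without single arrays (202 without treated WT replicate 7, and 165 to 203 without any 1 untreated WT array). The test of the difference of the responses had 10, against 257 with array weights, 55 with the 3'/5' covariate, 20 with median centring, 18 with probe sets averaged, 6 with the values as deposited, 3 with the replicate block, the B and plasma cell covariate or without treated WT replicates 1 and 2, 1 with the goblet covariate, 0 without Retnlb in it and at 0.01, and 3 to 164 without single arrays (164 without treated KO replicate 9, 36 without replicate 6). No member was among these in any of them. Finally, the untreated genotypes had 21, against 43 with array weights and 13 at 0.01. The test of the difference of the responses uses all 4 groups and so has no version with only the groups compared. The cause was not tested. Trib3, near the floor, is limited by its signal over background.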
